A study of Mus musculus with 6 samples.

Results

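The D-type cyclins, the inhibitors of cyclin-dependent kinases (CDKs) and Trp53 were examined in RNA-seq of mouse bone marrow mesenchymal stem cells (BMMSCs). They comprised 10 genes of the 36845 gene symbols in the table, taken by symbol as a fixed list of genes with known roles, drawn up with earlier results of these data known: Ccnd1, Ccnd2, Ccnd3, Cdkn1a, Cdkn1b, Cdkn1c, Cdkn2a, Cdkn2b, Cdkn2c and Trp53. Each had 1 row, and all 10 passed the filter of a mean of at least 0.1 RPKM, the unit that scales the reads of a gene to its length and to the depth of sequencing. The cells were adherent cells from the femur and tibia marrow of C57BL/6 mice, with no sort described, at passage 2 by the sample labels and passage 1 by the study's methods. In the siTet1/Tet2 group (n = 3 libraries), Tet1 and Tet2 were knocked down with small interfering RNAs (siRNAs). The Control group (n = 3) received non-targeting siRNA according to the labels, whereas the RNA-sequencing methods call it vehicle-treated. Nothing in the labels says that the 3 libraries of a group came from separate mice or cultures, so that p-values measure only the spread between these libraries, which may be technical. The study describes faster proliferation of BMMSCs after knockdown of Tet1 and Tet2. Nothing in the sources used here says that the sequenced RNA came from those cultures. The comparison asks how the G1 control genes stood after the knockdown.

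In G1 phase, mitogens induce the D cyclins, which bind CDK4 and CDK6 and start the phosphorylation of the retinoblastoma protein (RB), and this releases E2F transcription factors to drive entry into S phase. The INK4 inhibitors (here Cdkn2a, Cdkn2b and Cdkn2c) bind CDK4 and CDK6 and keep the D cyclins off them. Cdkn2d, also of the INK4 family, is listed below with the G1 partners and is not in the INK4 sums. The CIP/KIP inhibitors (Cdkn1a, Cdkn1b and Cdkn1c) act mainly on cyclin E-CDK2 complexes and also help to assemble D cyclin-CDK4 complexes. Trp53 encodes p53, the stress-activated transcription factor whose best known target here is Cdkn1a. The products of Cdkn2a accumulate in cultured cells as these approach senescence. TET enzymes oxidize 5-methylcytosine, a base found in mammals mostly at CG pairs.

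The Cdkn2a/Cdkn2b locus and Cdkn2c lie on the same chromosome and moved in opposite directions, and the sequences of their promoters were therefore compared. On GRCm38 (GENCODE M21), Cdkn2a occupies chr4:89274471-89294653 and Cdkn2b chr4:89306299-89311039, both on the minus strand with 11645 bases between them, and Cdkn2c occupies chr4:109660876-109667189, also on the minus strand. RefSeq promoters (GRCm38.p6) were matched by symbol for 7 of the 10 genes, with 11 promoters in all. Each sequence gives the 250 bases before a RefSeq start, 5′ to 3′ on the minus strand, with every CG in capitals. Cdkn2a has 2 starts, an upstream one for the p19Arf transcript and a downstream one for p16Ink4a, and the deposited row pools both. The stretches are chr4:89294620-89294869 (Cdkn2a, upstream), chr4:89282193-89282442 (Cdkn2a, downstream), chr4:89311033-89311282 (Cdkn2b) and chr4:109666757-109667006 (the upstream start of Cdkn2c).
Cdkn2a upstream start: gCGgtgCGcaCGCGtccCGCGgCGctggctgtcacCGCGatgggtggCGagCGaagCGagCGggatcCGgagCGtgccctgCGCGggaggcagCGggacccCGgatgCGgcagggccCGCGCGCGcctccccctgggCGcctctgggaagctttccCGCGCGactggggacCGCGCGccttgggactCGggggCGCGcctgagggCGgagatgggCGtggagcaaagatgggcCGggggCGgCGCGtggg
Cdkn2a downstream start: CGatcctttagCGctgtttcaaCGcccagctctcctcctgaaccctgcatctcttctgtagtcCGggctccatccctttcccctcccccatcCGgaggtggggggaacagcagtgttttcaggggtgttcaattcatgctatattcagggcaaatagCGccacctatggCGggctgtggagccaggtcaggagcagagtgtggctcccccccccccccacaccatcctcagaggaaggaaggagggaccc
Cdkn2b: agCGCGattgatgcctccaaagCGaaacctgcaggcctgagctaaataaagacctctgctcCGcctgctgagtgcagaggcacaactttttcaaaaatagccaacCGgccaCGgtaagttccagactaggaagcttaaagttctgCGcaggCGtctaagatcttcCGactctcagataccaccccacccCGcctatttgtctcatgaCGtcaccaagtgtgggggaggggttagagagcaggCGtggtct
Cdkn2c upstream start: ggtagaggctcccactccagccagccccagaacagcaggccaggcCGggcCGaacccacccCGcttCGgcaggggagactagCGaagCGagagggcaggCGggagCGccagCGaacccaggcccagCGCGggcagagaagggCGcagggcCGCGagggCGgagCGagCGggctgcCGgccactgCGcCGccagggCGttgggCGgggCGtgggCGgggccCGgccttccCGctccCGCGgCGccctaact

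The upstream start of Cdkn2a was preceded by 40 CGs, more than at 98.7% of the 32851 RefSeq mouse promoters of this length, whose median was 6. The downstream start had 7 CGs and Cdkn2b had 12. Cdkn2c had 29 CGs at the upstream start and 6 at its other start. Thus Cdkn2a, which fell, and Cdkn2c, which rose, each had a CG-rich promoter and another close to the median in CG count. Cdkn2c was the only gene called higher, and no promoter was matched for Ccnd1, Ccnd2 and Cdkn1c, which fell. So few promoters cannot show whether CG content goes with direction. Cdkn1b held 28 CGs, Trp53 held 9, Cdkn1a held 2 and 19 at its 2 starts, and Ccnd3 held 11 and 19. Letters searched on both strands were GGGCGG (Sp1), present in 6 of the 11 promoters and in 32.7% of all, and TTNNCGC (E2F), present in 4 of the 11 and in 17% of all. CACGTG (E-box) and TGANTCA (AP-1) occurred in none of the 11 and in 6.02% and 6.75% of all, and TATAAA occurred at Trp53 alone and in 12.4% of all. These are matches of letters only, and RNA-seq gives neither methylation nor the start in use.

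The targeted genes were examined first. Tet2 RPKM was 2.57, 4.08 and 3.71 in Control libraries 1 to 3 and 0.358, 0.238 and 0.202 in siTet1/Tet2 libraries 1 to 3, a difference of -1.80 (SE 0.13) on the log2(RPKM + 1) scale with an adjusted p of 2.88e-05 (limma, Benjamini-Hochberg). Tet1 was low, at 0.032, 0.098 and 0.050 RPKM in Control and at 0.001, 0.010 and 0.001 RPKM in siTet1/Tet2, where 0.001 is the lowest value listed. By the estimated depth and the longest transcript, the Control values amount to 17.2, 46.3 and 23.3 reads and that of siTet1/Tet2 library 2 to 5.5 reads. The value 0.001 of siTet1/Tet2 libraries 1 and 3 may stand for no reads, since 18360 rows hold it in all 6 libraries. The groups did not overlap, but the mean was below the filter and Tet1 was not tested. Tet3, which was not targeted, had overlapping groups (7.03 ± 1.55 and 7.66 ± 0.767 RPKM, SD, n = 3, adjusted p 0.508). Both targeted genes were thus lower in every siTet1/Tet2 library than in any Control library, Tet2 with a test and Tet1 without one.

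Cell type markers were compared with the label. Summed RPKM of 18 stromal markers was between 2162 and 2913 in Control and between 359 and 666 in siTet1/Tet2, and 13 of the 15 that passed the filter fell, 1 rose (Vcam1) and 1 did not pass the test (Nt5e). Lum, Thy1 (CD90, as a surface protein a marker the study used for BMMSCs) and Lepr were below the filter. Summed RPKM of 19 macrophage markers was between 10554 and 13695 in Control and between 19261 and 22452 in siTet1/Tet2, with 8 higher, 2 lower and 9 not called. Lyz2 carried most of that difference, and the other 18 markers, a sum added after the values were seen, came to between 7006 and 8682 RPKM in Control and between 9418 and 9960 RPKM in siTet1/Tet2. Ptprc (CD45) stood at 52.6 ± 4.57 RPKM in Control and 53 ± 6.04 RPKM in siTet1/Tet2 (SD, n = 3). The study describes BMMSCs as negative for CD45 by flow cytometry. That measure is of surface protein, on BMMSCs of control and double knockout mice and not on these libraries. Markers of other marrow cells summed to at most 2.15 RPKM in any library. Thus RNA of a macrophage type was abundant in all 6 libraries, and the stromal and macrophage sums moved with the groups. Their part in the changes below was not tested. In bulk RNA, fewer cells of a type and less RNA per cell cannot be told apart.

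Of the 10 genes, 7 were lower in siTet1/Tet2 (Ccnd1, Ccnd2, Cdkn1a, Cdkn1c, Cdkn2a, Cdkn2b and Trp53), 1 was higher (Cdkn2c) and 2 did not pass the test (Ccnd3 and Cdkn1b) at an adjusted p under 0.05. Over all 13249 genes tested, 29.8% were called lower and 14.7% higher. The median log2 fold change was -1.09 for the 10 genes and -0.09 for all genes tested. The study's own thresholds require a fold change over 2 together with an unadjusted p under 0.05. Here the fold change was taken on log2(RPKM + 1), so that fewer genes pass than on plain RPKM. By this rule 5 of the 10 genes were lower (Ccnd1, Ccnd2, Cdkn1c, Cdkn2a and Cdkn2b) and none was higher, against 5.62% and 0.951% of all genes tested. The 3 Control and 3 siTet1/Tet2 values did not overlap for 9 of the 10 genes, 7 lower and 2 higher, against 35.9% lower and 19.8% higher over all genes tested. The split of all calls depended on how libraries were scaled: 3945 genes were lower and 1949 higher with the values as deposited, 3103 and 2692 after median ratio scaling, and 2636 and 3584 after quantile normalization, which shifted the median of all genes by 0.14. The 7 lower genes were called lower under each of these scalings.

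**Figure D1:**
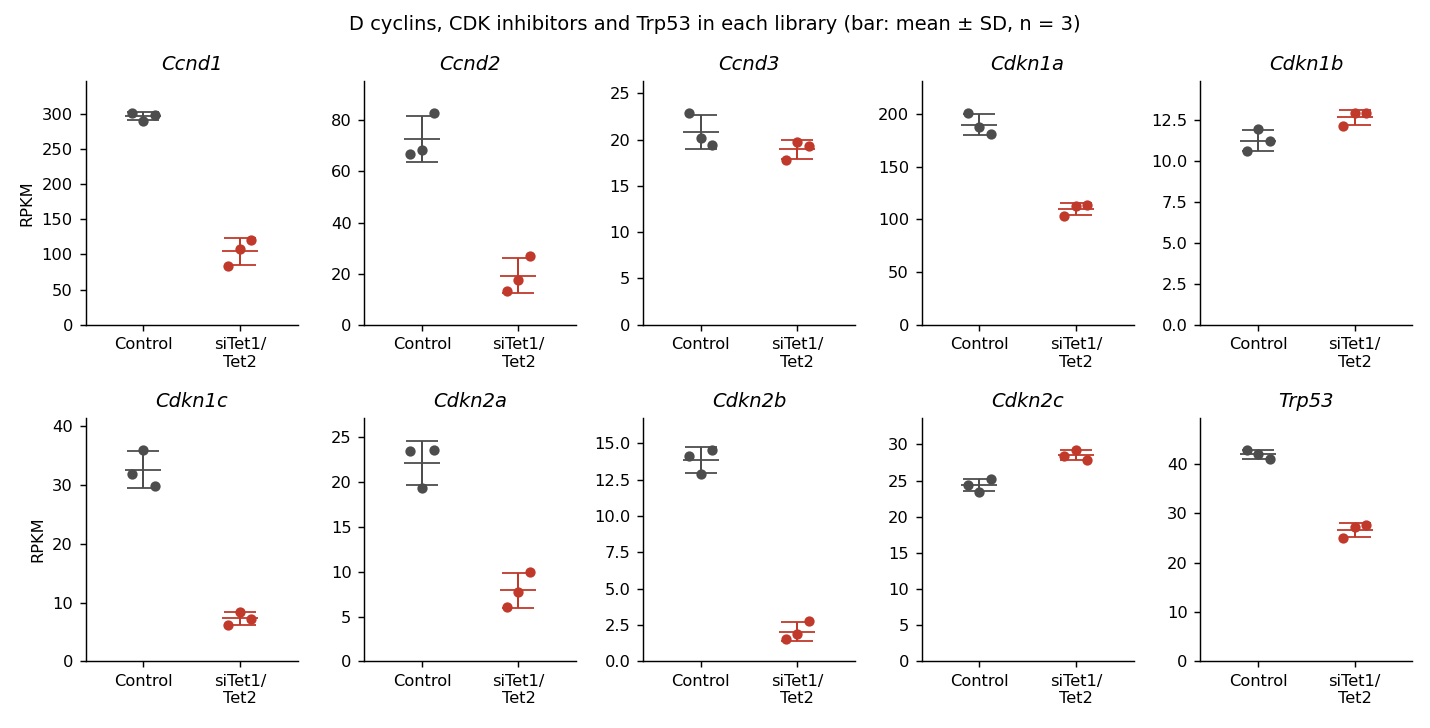
RPKM of each of the 10 genes (vertical axes, linear and from 0, a scale for each gene) in the 3 Control (grey) and 3 siTet1/Tet2 (red) libraries, with a point for each library and bars for the mean ± SD (n = 3). The groups overlap for Ccnd3 alone; Cdkn1b and Cdkn2c are higher in siTet1/Tet2 and the other 7 genes are lower.

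Of the D cyclins, Ccnd1 and Ccnd2 fell and Ccnd3 did not pass the test. Ccnd1 encodes cyclin D1, the main D cyclin of fibroblastic and mesenchymal cells (chr7:144929931-144939925, minus strand). Its RPKM was 301, 290.1 and 299 in Control libraries 1 to 3 and 83.5, 108 and 121 in siTet1/Tet2 libraries 1 to 3. Every siTet1/Tet2 library was far below every Control library, and the siTet1/Tet2 libraries were the more scattered. The mean fell from 297 ± 5.76 to 104 ± 19.1 RPKM (SD, n = 3), 35.1% of Control, with a log2 fold change of -1.52 (SE 0.12, adjusted p 4.35e-05, limma with Benjamini-Hochberg adjustment as in all tests of single genes here).

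Ccnd2 encodes cyclin D2 (chr6:127125162-127152193, minus strand). Its RPKM was 66.7, 68.3 and 82.9 in Control and 13.3, 17.6 and 26.8 in siTet1/Tet2. Again the groups were far apart, and library 3 was the highest of each group. Its mean decreased from 72.6 ± 8.95 to 19.2 ± 6.88 RPKM, 26.5% of Control (log2 fold change -1.91, SE 0.21, adjusted p 0.000201).

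Ccnd3 encodes cyclin D3, the D cyclin best known from blood cells (chr17:47505051-47599691, plus strand). Its RPKM was 22.9, 20.1 and 19.4 in Control and 17.8, 19.7 and 19.3 in siTet1/Tet2. The groups overlapped. The log2 fold change was -0.13 (95% interval -0.31 to 0.06, adjusted p 0.234), so that a fall of the size seen in Ccnd1 or Ccnd2 lay outside the interval, and its sign changed to 0.0067 after quantile normalization.

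The make-up of the D cyclin RPKM was then compared, a measure that is taken within a library and does not depend on a scaling by 1 factor per library. Ccnd3 contributed 5.86%, 5.32% and 4.84% of the summed D cyclin RPKM in Control and 15.5%, 13.6% and 11.6% in siTet1/Tet2, a difference of 8.21 percentage points. Ccnd2 contributed 18.6% ± 1.87 in Control and 13.2% ± 2.42 in siTet1/Tet2, and Ccnd1 contributed 76.1% ± 1.39 and 73.2% ± 0.990 (SD, n = 3). Ccnd1 thus supplied most of the D cyclin RPKM in every library. The groups did not overlap for any of the 3 shares, and the two-sided exact permutation p was 0.1 for each, before and after adjustment over the 5 within-library measures, which is the smallest value that 3 against 3 libraries can give.

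**Figure D2:**
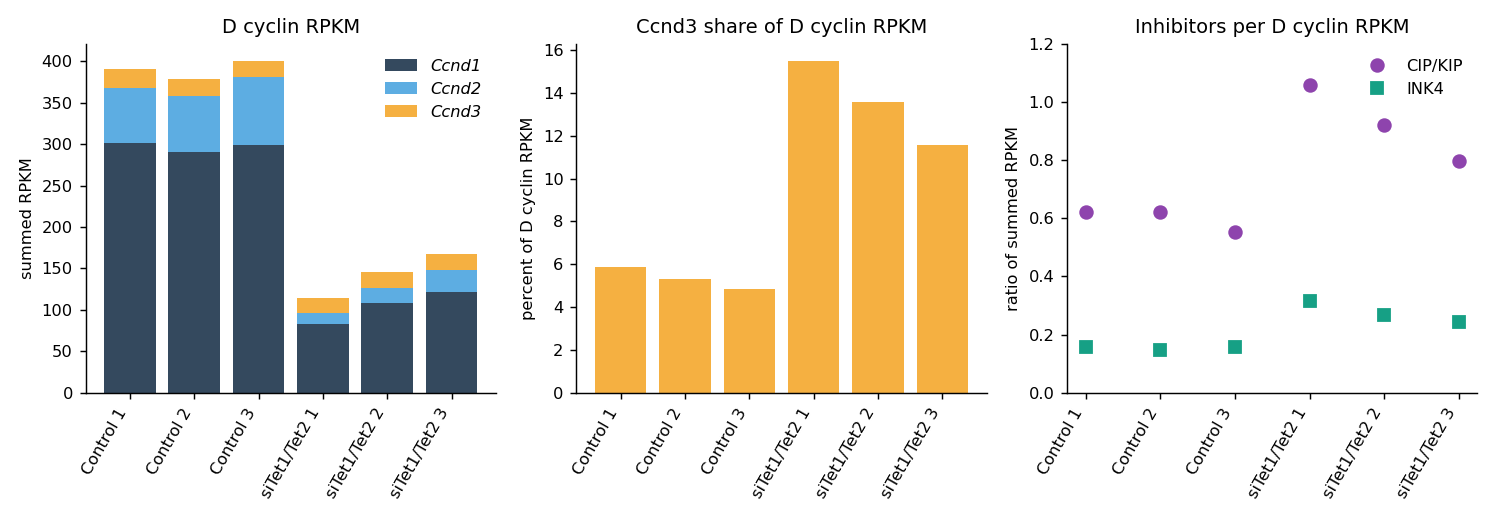
For each of the 6 libraries: summed RPKM of Ccnd1, Ccnd2 and Ccnd3 (left, stacked bars), the share of Ccnd3 in that sum in percent (middle), and the summed RPKM of the CIP/KIP and INK4 genes divided by the D cyclin sum (right, points). The D cyclin sum was between 379 and 401 RPKM in Control and between 114 and 167 RPKM in siTet1/Tet2, and the Ccnd3 share and both ratios were higher in all 3 siTet1/Tet2 libraries.

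Of the CIP/KIP genes, Cdkn1a and Cdkn1c fell and Cdkn1b did not pass the test. Cdkn1c encodes p57Kip2, an imprinted inhibitor linked to quiescence and differentiation (chr7:143458339-143461050, minus strand). Its RPKM was 31.8, 36.1 and 29.9 in Control and 6.24, 8.45 and 7.22 in siTet1/Tet2. All siTet1/Tet2 libraries were well below Control, and the spread within each group was small beside that gap. On average it fell from 32.6 ± 3.14 to 7.31 ± 1.11 RPKM, 22.4% of Control (log2 fold change -2.02, SE 0.11, adjusted p 7.14e-06).

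Cdkn1a encodes p21Cip1, the inhibitor that p53 induces after DNA damage (chr17:29090976-29100727, plus strand). Its RPKM was 201, 188 and 181 in Control and 103, 113 and 113 in siTet1/Tet2. The groups were apart, with a smaller change than in Cdkn1c. The mean fell from 189.9 ± 10.3 to 109.6 ± 5.88 RPKM, 57.7% of Control (log2 fold change -0.79, SE 0.07, adjusted p 6.04e-05).

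Cdkn1b encodes p27Kip1, which is controlled to a large extent by protein degradation (chr6:134920401-134925513, plus strand). Its RPKM was 10.6, 11.9 and 11.2 in Control and 12.1, 12.9 and 12.9 in siTet1/Tet2. Each siTet1/Tet2 value was above each Control value, by a narrow margin. The log2 fold change was 0.16 (95% interval -0.01 to 0.33) with an adjusted p of 0.116, so that the gene did not pass the test on the deposited scale. It passed after median ratio scaling (0.25, adjusted p 0.0216) and after quantile normalization (0.30, adjusted p 0.00862).

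Among the INK4 genes, the neighbours Cdkn2a and Cdkn2b fell and Cdkn2c rose. Cdkn2b encodes p15Ink4b, an inhibitor that TGF-beta signaling induces. Its RPKM was 14.1, 12.9 and 14.6 in Control and 1.53, 1.85 and 2.79 in siTet1/Tet2. No siTet1/Tet2 library came near Control. Mean RPKM fell from 13.9 ± 0.876 to 2.06 ± 0.656 RPKM, 14.8% of Control (log2 fold change -2.30, SE 0.15, adjusted p 1.45e-05), which was the largest change in fold of the 10 genes. By the estimated depth, its lowest value rested on about 81 reads.

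Cdkn2a encodes p16Ink4a and, from another reading frame, p19Arf, which stabilizes p53. Its RPKM was 23.5, 19.3 and 23.7 in Control and 6.13, 7.71 and 10.00 in siTet1/Tet2. The groups were apart, and the siTet1/Tet2 libraries spread more widely in proportion than the Control libraries. Its average fell from 22.2 ± 2.43 to 7.95 ± 1.94 RPKM, 35.9% of Control (log2 fold change -1.39, SE 0.15, adjusted p 0.000199).

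Cdkn2c encodes p18Ink4c, an INK4 inhibitor expressed in many proliferating and differentiating tissues. Its RPKM was 24.4, 23.5 and 25.2 in Control and 28.5, 29.3 and 27.9 in siTet1/Tet2. The groups did not overlap, and the rise was small. The mean was 24.3 ± 0.840 RPKM in Control and 28.5 ± 0.724 RPKM in siTet1/Tet2, 1.17 times as high (log2 fold change 0.22, SE 0.06, adjusted p 0.0162). The direction was the same in every alternative run, but the call was lost when each library was rescaled to the same sum (adjusted p 0.109), without Control library 2 (0.0706), without siTet1/Tet2 library 1 (0.0554) and without siTet1/Tet2 library 2 (0.0727).

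Trp53 (chr11:69580359-69591873, plus strand) stood at 42.9, 41.9 and 40.9 RPKM in Control and at 25.0, 27.1 and 27.7 RPKM in siTet1/Tet2. The groups were tight and apart. The mean fell from 41.9 ± 0.981 to 26.6 ± 1.44 RPKM, 63.4% of Control (log2 fold change -0.64, SE 0.06, adjusted p 0.000104), which was the smallest of the 7 falls.

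**Figure D3:**
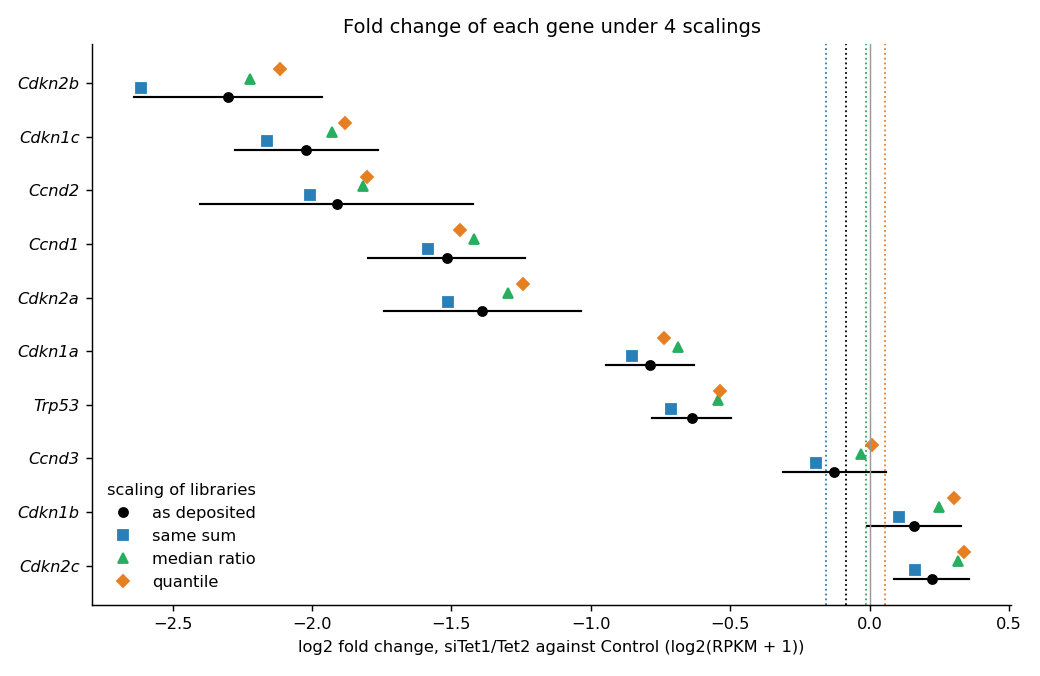
Log2 fold change of each gene, siTet1/Tet2 against Control on log2(RPKM + 1), with the values as deposited (black, with the 95% interval) and after 3 other scalings of the libraries (colored points); dotted lines mark the median of all genes tested in the matching color. The 7 genes from Cdkn2b to Trp53 lie below 0 under each scaling, Cdkn2c and Cdkn1b lie above 0, and Ccnd3 crosses 0 after quantile normalization.

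The balance of inhibitors and D cyclins was compared in the same way. Summed D cyclin RPKM was 390.0 ± 11.2 in Control and 142 ± 26.4 in siTet1/Tet2, summed CIP/KIP RPKM was 234 ± 10.9 and 129.6 ± 7.27, and summed INK4 RPKM was 60.4 ± 4.09 and 38.5 ± 2.28 (SD, n = 3). CIP/KIP RPKM per D cyclin RPKM was 0.623, 0.623 and 0.554 in Control and 1.06, 0.921 and 0.799 in siTet1/Tet2. INK4 RPKM per D cyclin RPKM was 0.159, 0.147 and 0.158 in Control and 0.315, 0.267 and 0.243 in siTet1/Tet2. Hence summed inhibitor RPKM was lower in all 3 siTet1/Tet2 libraries than in any Control library. Both inhibitor sums per D cyclin RPKM were nevertheless higher in all 3. The two-sided exact permutation p was 0.1 for both ratios, again the smallest possible. These ratios are of sums and do not describe each inhibitor. Cdkn2b (14.8% of Control) and Cdkn1c (22.4%) fell further than Ccnd1 (35.1%) or Ccnd2 (26.5%). Cdkn2a (35.9%) fell about as far as Ccnd1, Cdkn1a (57.7%) fell less far, and Cdkn1b and Cdkn2c did not fall. Most of the CIP/KIP sum was Cdkn1a, with 189.9 RPKM in Control and 109.6 RPKM in siTet1/Tet2. In siTet1/Tet2, Cdkn2c alone had 28.5 RPKM of the INK4 sum, after 24.3 RPKM in Control.

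The order of the mean RPKM levels was compared between the groups. In Control it ran Ccnd1, Cdkn1a, Ccnd2, Trp53, Cdkn1c, Cdkn2c, Cdkn2a, Ccnd3, Cdkn2b and Cdkn1b from high to low, and the values overlapped between Cdkn2c and Cdkn2a and between Cdkn2a and Ccnd3. In siTet1/Tet2 it ran Cdkn1a, Ccnd1, Cdkn2c, Trp53, Ccnd2, Ccnd3, Cdkn1b, Cdkn2a, Cdkn1c and Cdkn2b, with overlap between Cdkn1a and Ccnd1, Trp53 and Ccnd2, Ccnd2 and Ccnd3, and Cdkn2a and Cdkn1c. Cdkn1b was the lowest of the 10 genes in Control and stood above Cdkn2a, Cdkn1c and Cdkn2b in siTet1/Tet2.

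Within the siTet1/Tet2 group, 7 of the 10 genes (Ccnd1, Ccnd2, Cdkn1a, Cdkn1b, Cdkn2a, Cdkn2b and Trp53) were lowest in library 1, intermediate in library 2 and highest in library 3. The stromal marker sum of the same libraries, 359, 485 and 666 RPKM, had this order too, and so did 26.8% of all genes tested. The macrophage marker sum was 22452, 21353 and 19261 RPKM, and without Lyz2 it was 9724, 9960 and 9418 RPKM, so that the falling order of the full sum was that of Lyz2. Whether the composition of the libraries has a part in the differences within the group was not tested.

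The partners of these genes in G1 were examined next. Of 29 genes for CDKs, cyclin E, the RB family, E2F and their turnover, 10 fell, 6 rose and 13 did not pass the test, with a median log2 fold change of -0.22. Over all genes tested, the background was 29.8% lower and 14.7% higher. The split was 12 lower and 1 higher after rescaling to the same sum, 7 and 6 after median ratio scaling, and 5 and 9 after quantile normalization, where all genes tested split 4372 and 1524, 3103 and 2692, and 2636 and 3584. Cdk4, the kinase that the D cyclins activate, fell from 135 ± 14.3 to 100.1 ± 3.96 RPKM (log2 fold change -0.42, adjusted p 0.00413), and its relative Cdk6 fell from 16.6 ± 2.54 to 10.9 ± 1.07 RPKM (-0.56, adjusted p 0.00487). Without the filter on low values both calls were lost (adjusted p 0.0612 for Cdk4 and 0.0801 for Cdk6). Rbl1, which encodes the RB relative p107, fell (-0.42, adjusted p 0.00157), whereas Rbl2, which encodes the quiescence-linked relative p130, rose from 9.84 ± 0.105 to 13.5 ± 0.763 RPKM (0.41, adjusted p 0.00203). Rb1 itself had overlapping groups (0.16, 95% interval -0.11 to 0.44, adjusted p 0.303). So did Cdkn2d, the INK4 gene left out of the sums above (12.6 ± 0.426 RPKM in Control and 13.6 ± 0.750 RPKM in siTet1/Tet2, adjusted p 0.266). Ccndbp1, whose protein binds D cyclins (0.32, adjusted p 0.0334), and Tfdp2, an E2F partner (0.30, adjusted p 0.0352), were called higher. Both lost the call without Control library 1 or 2 and without siTet1/Tet2 library 1 or 2, and Tfdp2 also without siTet1/Tet2 library 3, with an adjusted p of up to 0.120 for Ccndbp1 and up to 0.108 for Tfdp2. Both calls were also lost after rescaling to the same sum (0.0901 and 0.107), with gene-wise variance (0.124 and 0.0690) and without the filter (0.249 and 0.133). Over the whole list, 10 genes were called without Control library 2 and 9 without siTet1/Tet2 library 2.

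Of 23 genes of the p53 pathway, 11 fell, 2 rose and 10 did not pass the test, with a median log2 fold change of -0.27, against 29.8% lower and 14.7% higher over all genes tested. The largest falls were in Tnfrsf10b, a death receptor (from 9.18 ± 0.752 to 2.49 ± 0.531 RPKM, -1.55, adjusted p 3.97e-05), Ddit4, a stress-induced inhibitor of mTORC1 (from 20.8 ± 1.79 to 6.91 ± 1.31 RPKM, -1.47, adjusted p 6.12e-05), and Btg2, an antiproliferative gene (from 5.78 ± 0.533 to 2.51 ± 0.0976 RPKM, -0.95, adjusted p 9.62e-05). Sesn1, a p53-induced sestrin, rose from 29.6 ± 0.954 to 59.7 ± 2.32 RPKM (0.99, adjusted p 1.04e-05), against the direction of Trp53 and Cdkn1a. Xpc, a DNA repair gene, was called higher (0.29, adjusted p 0.0139), and its adjusted p was 0.0540 without siTet1/Tet2 library 1 and 0.0554 after rescaling to the same sum. Mdm2, which encodes the ubiquitin ligase of p53 and is itself a p53 target, had overlapping groups (-0.14, 95% interval -0.33 to 0.06, adjusted p 0.225).

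Of 21 genes known as regulators of the D cyclin and inhibitor genes, 20 passed the filter, of which 8 fell, 5 rose and 7 did not pass the test, with a median log2 fold change of 0.09. Again 29.8% of all genes tested were lower and 14.7% higher. The split was 8 lower and 4 higher after rescaling to the same sum, 8 and 8 after median ratio scaling, and 6 and 10 after quantile normalization, next to the splits of all genes given above. Myc was at 26.4, 25.7 and 26.7 RPKM in Control and at 10.3, 14.0 and 15.5 RPKM in siTet1/Tet2 (-0.95, SE 0.13, adjusted p 0.000588). The groups did not overlap. Smad3, a mediator of TGF-beta signaling, fell from 9.95 ± 1.24 to 3.50 ± 0.604 RPKM (-1.29, adjusted p 0.000103), Klf4 from 7.94 ± 0.291 to 2.71 ± 0.668 RPKM (-1.28, adjusted p 0.000116) and Fosl1, an AP-1 subunit, from 5.74 ± 1.1 to 2.56 ± 1.17 RPKM (-0.96, adjusted p 0.0101). The call of Fosl1 was lost without the filter on low values (0.159) and with gene-wise variance (0.0831). The other TGF-beta genes of this list were mixed. Tgfb1 was called higher (0.16, adjusted p 0.0451), Smad4 lower (-0.27, adjusted p 0.0078), and Smad2 did not pass the test (0.13, adjusted p 0.181). The largest of the 5 rises were in Cbx7, a Polycomb protein that represses the Cdkn2a locus (from 0.924 ± 0.217 to 2.50 ± 0.422 RPKM, 0.86, adjusted p 0.000623), Ctnnb1, which encodes beta-catenin (from 184 ± 3.64 to 295 ± 14.4 RPKM, 0.67, adjusted p 8.77e-05), and Foxo3 (from 12.3 ± 1.12 to 18.3 ± 0.468 RPKM, 0.54, adjusted p 0.000862). The Polycomb genes Bmi1 and Ezh2 of the same list went the other way. Bmi1 fell from 12.1 ± 1.35 to 7.35 ± 0.529 RPKM (-0.65, adjusted p 0.00101) and Ezh2 from 18.1 ± 1.11 to 13.5 ± 0.558 RPKM (-0.40, adjusted p 0.00262).

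Of 28 genes of S phase and mitosis, 9 fell, 5 rose and 14 did not pass the test, with a median log2 fold change of -0.08, next to -0.09 for all genes tested, of which 29.8% were lower and 14.7% higher. The split was 10 lower and 3 higher after rescaling to the same sum, 6 and 7 after median ratio scaling, and 7 and 8 after quantile normalization. Without siTet1/Tet2 library 1, 9 genes were called. The largest falls were in genes that license replication origins: Cdt1 from 53 ± 1.47 to 35.1 ± 1.28 RPKM (-0.58, adjusted p 0.00011), Cdc6 from 5.67 ± 0.264 to 3.72 ± 0.111 RPKM (-0.50, adjusted p 0.00151) and Mcm4 from 24.7 ± 0.590 to 17.4 ± 0.688 RPKM (-0.48, adjusted p 0.000432). The largest rises included 2 genes of mitosis, Ccnb2, which encodes cyclin B2 (from 14.5 ± 0.757 to 29.9 ± 2.05 RPKM, 0.99, adjusted p 3.09e-05), and Cdc20, an activator of the anaphase-promoting complex (from 11 ± 0.682 to 14.6 ± 0.625 RPKM, 0.38, adjusted p 0.00419). Mki67, the common proliferation marker, was at 11.8, 13.6 and 20.0 RPKM in Control and at 22.4, 18.8 and 25.6 RPKM in siTet1/Tet2. Its groups overlapped (0.55, adjusted p 0.0378), and the call was lost without Control library 1 (0.102) or 2 (0.114) and without siTet1/Tet2 library 1 (0.0949) or 3 (0.105), as well as after rescaling to the same sum (0.0824), with gene-wise variance (0.162) and without the filter (0.337).

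**Figure D4:**
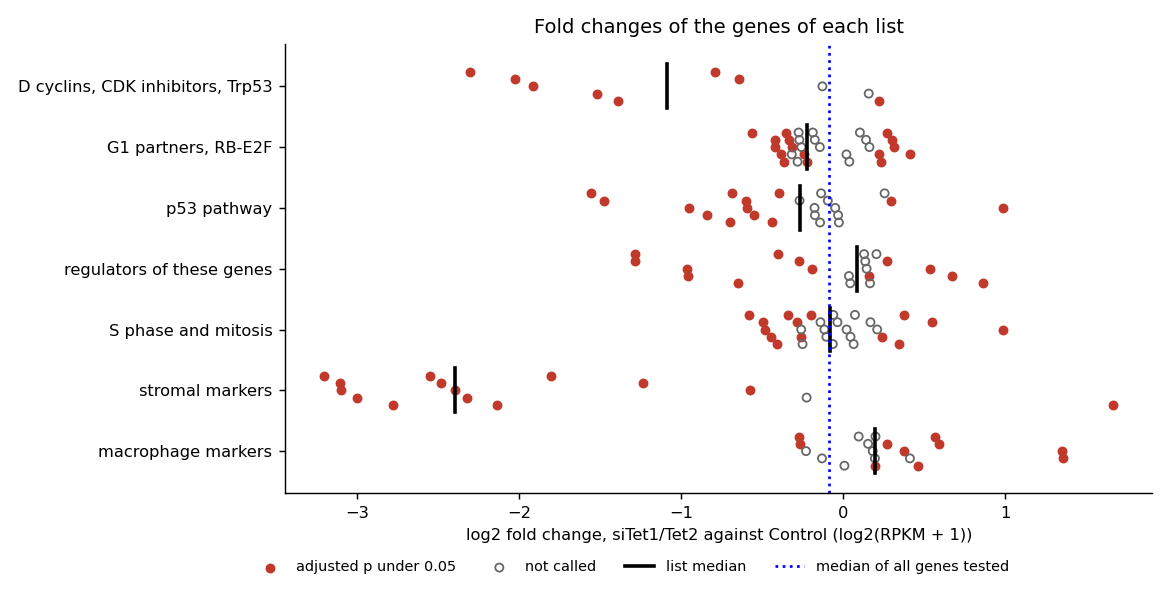
Log2 fold change, siTet1/Tet2 against Control on log2(RPKM + 1), of each tested gene in 7 groups of genes, with filled points for an adjusted p under 0.05, black bars for the median of a group and a dotted line for the median of all genes tested. The median is -1.09 for the D cyclins, inhibitors and Trp53, between -0.27 and 0.09 for the 4 other cell cycle lists, -2.40 for the stromal markers and 0.20 for the macrophage markers.

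The 2 genes with the most similar profile over the 6 libraries (smallest root mean square difference of centred log2(RPKM + 1)) were found for each gene, Cdkn2c aside. For Ccnd1 they were Fkbp14 (0.0172) and Bcat1 (0.0437), for Ccnd2 Dpysl3 (0.0275) and Loxl2 (0.0392), for Cdkn2a Fam101b (0.0377) and Sod3 (0.0634), and for Cdkn2b Antxr1 (0.0720) and Fhl2 (0.0726). Cdkn1c had no such close neighbour, and its nearest were Fcgr1 (0.108), an Fc receptor gene of macrophages that fell from 109 to 27.8 RPKM, and Tap1 (0.115). Cdkn1a was nearest to Yars (0.0142) and Pcbp4 (0.0207), and Trp53 to Nop2 (0.0303) and Mybbp1a (0.0336). Cdkn1b was nearest to Ndfip2 (0.0237) and Phka2 (0.0245). Ccnd3 was nearest to 4930503B20Rik (0.0242), which is below 0.2 RPKM and hence flat on this scale, and to Mrs2 (0.0257).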

How the data were processed

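RNA-seq of total RNA (2 groups, 6 libraries) was analysed from 1 table in which the authors deposited linear RPKM values: adaptors were trimmed, reads mapped to GRCm38 and abundance estimated with DNASTAR Lasergene (the study's methods call the unit FPKM). The annotation release, strand use and handling of reads matching several places are not given in the sources used here. A column of the authors' p-values was not used. The depth, estimated from the steps of low values, was 32400000 to 38500000 reads per library; only 56.2% to 60.1% of the values used lay within 0.1 of a whole read (20% by chance at a fixed depth), so no count test was run.

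Where a symbol had several rows, that with the highest mean was used, and 27 rows with date-like symbols were dropped. The 13249 genes averaging 0.1 RPKM or more were tested two-sided on log2(RPKM + 1), which understates the change of low genes, with limma 3.58.1 in R 4.3.3 (lmFit, trended eBayes), with Benjamini-Hochberg adjustment over all of them. The script was checked on simulated data. Within-library measures were compared by exact permutation tests (Python 3.11.15, scipy 1.17.1). The alternatives were other pseudocounts (0.1 and 0.01), filters, scalings, variance models and thresholds, summed rows of a symbol, the replicate block and each library left out.

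The 10 genes, the lists and the rule for named genes were chosen with earlier results of these data known. The rule took the 10 genes, the Tet genes, the 3 largest called rises and falls of each cell cycle list, Cdk4, Cdk6, Rb1, Mdm2, Myc and Mki67, and the 2 nearest profiles of each of the 10 genes (those of Cdkn2c are not reported here). Marker genes, Ptprc among them, were named beside these, and Vcam1, Nt5e, Lum, Thy1, Lepr, Lyz2, Cdkn2d, Bmi1, Ezh2, Tgfb1, Smad2 and Smad4 after their values were seen.

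Replicates correlated with r between 0.992 and 0.997 within a group and between 0.949 and 0.969 across groups, over genes. Deviations of same-numbered Control and siTet1/Tet2 libraries from their group means correlated with r of 0.149, 0.118 and 0.462 for numbers 1, 2 and 3. Since each exceeded 0.1, the block alternative took same-numbered libraries as pairs. The meaning of a number is not in the labels. Control 1 with siTet1/Tet2 2 reached 0.332 and Control 2 with siTet1/Tet2 1 reached 0.204. Only the pair of number 3 exceeded every differently numbered pair.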

Additional observations from a re-analysis of the deposited data

How the results depend on the processing

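The 7 falls (Ccnd1, Ccnd2, Cdkn1a, Cdkn1c, Cdkn2a, Cdkn2b and Trp53) held their call at an adjusted p under 0.05, and their direction, in all 17 other fits, and under the study's fold threshold Cdkn1a and Trp53 were not called. The cause of the changes named here was not tested. The number of the 10 genes called was 8, with 5 under the study's fold threshold, between 7 and 8 with a library left out, 7 after rescaling to the same sum and 9 after median ratio scaling or quantile normalization. Ccnd3 reversed after quantile normalization (0.0067, adjusted p 0.952). Calls in the G1 list numbered 16, with 10 without the filter on low values, 0 under the fold threshold and between 9 and 17 with a library left out. For the p53 list 13 were called, with 2 under the fold threshold and between 11 and 15 with a library left out, and for the regulators 13, 2 and between 11 and 14. For S phase and mitosis 14 were called, with 9 without the filter, 0 under the fold threshold and between 9 and 15 with a library left out. The fold threshold was applied on log2(RPKM + 1). By the ratio of mean RPKM, the rises of Ccnb2 (2.06), Sesn1 (2.02) and Cbx7 (2.71) exceeded 2. So did the falls of Btg2 (2.31) and Fosl1 (2.24), as Control over siTet1/Tet2. None of these genes is in the fold threshold counts. The no-filter fit adjusts over 36845 symbols. With the replicate block, 8 of the 10 genes were called, with no call among them changed, and 21, 15, 13 and 15 genes of the G1, p53, regulator and S phase lists. With a library left out, the siTet1/Tet2 minus Control difference ranged from -3.65 to -2.35 points for the Ccnd1 share, -6.74 to -4.31 for Ccnd2 and 7.23 to 9.20 for Ccnd3, from 0.260 to 0.390 for CIP/KIP and from 0.10 to 0.137 for INK4 per D cyclin RPKM, with an exact permutation p of 0.2 each, the smallest such libraries can give. Depth limits Tet1, with an estimated 17.2 to 46.3 reads in a Control library and at most 5.5 in a siTet1/Tet2 library.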
